A study of Mus musculus with 2 samples.

Results

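The 9 genes described here, Vwf, Itga2b, Itgb3, Pf4, Ppbp, Gp1ba, Gp9, Gp5 and Gp6, encode the adhesive ligand, the integrin, the granule chemokines and the membrane glycoproteins of platelets and of megakaryocytes, the marrow cells that release platelets. They were taken by name from 55413 annotated mouse genes. Chromatin accessibility was measured at their start sites, gene bodies and flanks in single hematopoietic stem cells (HSCs) by scATAC-seq, in which a transposase cuts open chromatin and leaves a sequencing fragment between each pair of cuts. The data came from 1 library of 10-week-old (young) and 1 library of 20-month-old (aged) C57BL/6 bone marrow HSCs, neither of them treated. The HSCs were sorted as c-kit+ Sca-1+ CD150+ cells that were Lin-, IL-7Rα-, CD34-, CD48- and Flt3-. How many mice gave each library is not stated for this assay. With 1 library per age there is no replicate error and no test, and age cannot be told apart from the library. All intervals below are exact 95% intervals that cover counting error only.

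Platelets stop bleeding by first tethering to von Willebrand factor, the product of Vwf, through the glycoprotein Ib-IX-V complex, whose chains include the products of Gp1ba, Gp9 and Gp5. The Gp6 product binds collagen, and the integrin made of the Itga2b chain (CD41) and the Itgb3 chain then binds fibrinogen and links platelets to each other. Pf4 and Ppbp encode chemokines that are packed into the alpha granules. Some HSCs are known to be primed toward the platelet lineage, and Vwf and Itga2b have been used to mark such cells.

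The cells kept were 4887 of 5028 called cells in the young library and 3405 of 3694 in the aged library, those with 3000 to 20000 fragments in peaks. They held 50069575 and 38663214 fragments, with a median of 9890 and 11020 per cell, and 59.8% and 55.0% of the fragments were shorter than the DNA of 1 nucleosome (short fragments). The libraries shared 26 cell barcodes. Levels are given as FPM, fragments per 1000000 fragments that had an end in open 500-bp bins, meaning bins at 5 times the genome mean or more. There were 176999 such bins, 3.25% of the genome, and 35142089 young and 26573446 aged fragments fell in them. The sorted identity was checked at the start sites of marker genes. The median level over 10 HSC markers was 19.2 FPM in young and 19.0 FPM in aged cells, with Mecom at 0.512 and 0.527 FPM. It was 6.86 and 5.87 FPM over the 7 of 8 erythroid markers found, 11.2 and 11.9 over 8 endothelial, 3.34 and 3.01 over 8 myeloid, 2.38 and 1.75 over 8 lymphoid and 0.270 and 0.358 FPM over 10 genes of other tissues.

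The promoters of the platelet genes differed far more from each other than between ages. The bases before the RefSeq start site (GRCm38.p6, the build of the files, mm10) are shown first for 5 open promoters, since most of the fragments described next lie in or near them. A RefSeq promoter sequence was matched by symbol for 7 of the 9 genes. Capitals mark matches, on either strand, to letters of factors that act in the megakaryocyte lineage. For GATA these were AGATAA or the same with T as the first base or G as the last. For ETS they were AGGAAG or the same with C first, for RUNX TGTGGT or the same with C as the third base, and for NF-E2 TGACTCA. No 2 matches overlap in the sequences printed. The 250 bases of Itga2b are chr11:102469884-102470133 on the minus strand, those of Gp1ba chr11:70638872-70639121 on the plus strand, those of Gp9 chr6:87777820-87778069 on the plus strand, those of Gp5 chr16:30310782-30311031 on the minus strand and those of Pf4 chr5:90772185-90772434 on the plus strand.
Itga2b: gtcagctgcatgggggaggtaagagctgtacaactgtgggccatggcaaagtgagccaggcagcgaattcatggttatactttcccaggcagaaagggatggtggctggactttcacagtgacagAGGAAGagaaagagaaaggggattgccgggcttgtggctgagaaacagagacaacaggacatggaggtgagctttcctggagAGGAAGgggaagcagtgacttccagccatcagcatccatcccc
Gp1ba: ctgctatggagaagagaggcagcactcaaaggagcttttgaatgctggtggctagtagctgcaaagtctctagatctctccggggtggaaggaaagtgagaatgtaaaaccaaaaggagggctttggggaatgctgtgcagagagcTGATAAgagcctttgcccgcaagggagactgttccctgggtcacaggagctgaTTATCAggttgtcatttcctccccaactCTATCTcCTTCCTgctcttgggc
Gp9: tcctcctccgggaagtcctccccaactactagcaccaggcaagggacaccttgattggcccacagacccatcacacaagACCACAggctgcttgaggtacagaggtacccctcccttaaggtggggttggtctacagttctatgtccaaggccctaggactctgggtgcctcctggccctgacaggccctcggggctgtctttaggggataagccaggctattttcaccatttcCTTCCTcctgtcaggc
Gp5: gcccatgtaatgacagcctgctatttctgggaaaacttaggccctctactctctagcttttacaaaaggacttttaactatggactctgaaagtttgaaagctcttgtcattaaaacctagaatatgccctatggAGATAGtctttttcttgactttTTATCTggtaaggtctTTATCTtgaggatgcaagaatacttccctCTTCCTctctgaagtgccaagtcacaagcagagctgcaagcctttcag
Pf4: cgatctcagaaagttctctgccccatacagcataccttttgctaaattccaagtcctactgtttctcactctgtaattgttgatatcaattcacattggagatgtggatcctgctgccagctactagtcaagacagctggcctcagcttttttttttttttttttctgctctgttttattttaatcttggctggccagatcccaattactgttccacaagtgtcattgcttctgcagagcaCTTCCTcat

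Gp1ba and Gp5, both of the receptor for von Willebrand factor, each held 3 GATA and 1 ETS match. Gp9, of the same receptor, held 1 RUNX and 1 ETS match, Itga2b 2 ETS matches and Pf4 1 ETS match. Of the closed promoters, Gp6 held 1 GATA match and Ppbp no match. Among 32851 RefSeq start sites, 26.5% held a GATA match in a window of this length, 39.2% an ETS match, 18.6% a RUNX match and 4.46% an NF-E2 match. The printed bases do not always hold the densest part. The 200 bases at the densest fragment ends of the Itga2b promoter, chr11:102470070-102470269, held 1 GATA and 2 ETS matches. Those of Pf4, chr5:90772404-90772603, held 2 GATA, 1 ETS and 1 RUNX match. Those of Gp5, chr16:30309574-30309773 inside the gene, held 1 GATA, 1 ETS and 1 RUNX match. Shares for such windows over all elements are given below.

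Within 1 kb of the start site, 6 of the 9 promoters were open in both libraries. Pf4 gave 1440 fragments in young and 1023 in aged cells, or 41.0 (38.9 to 43.1) and 38.5 (36.2 to 40.9) FPM. Gp1ba, the chain that touches von Willebrand factor, gave 1303 and 953 fragments, 37.1 and 35.9 FPM. These 2 windows were the most open of the set, at the 91.0 and 89.4 percentile of all annotated promoters in level. Itga2b gave 1068 and 630 fragments, 30.4 and 23.7 FPM, Gp9 1006 and 702 fragments, 28.6 and 26.4 FPM, and Itgb3 764 and 760 fragments, 21.7 and 28.6 FPM. Gp5 was lower, with 541 and 443 fragments, 15.4 and 16.7 FPM, at the 76.6 percentile.

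The other 3 promoters were nearly closed. Ppbp, whose start lies 3917 bp from that of Pf4 in the same chemokine cluster, gave 76 and 62 fragments, 2.16 (1.70 to 2.71) and 2.33 (1.79 to 2.99) FPM. Vwf gave 30 and 14 fragments, 0.854 (0.576 to 1.22) and 0.527 (0.288 to 0.884) FPM. Gp6 gave 8 and 3 fragments, 0.228 and 0.113 FPM, and was thus at the level of genes of other tissues. Vwf and Gp6 stayed below the 50 fragments in sum required for a comparison of ages.

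**Figure D1:**
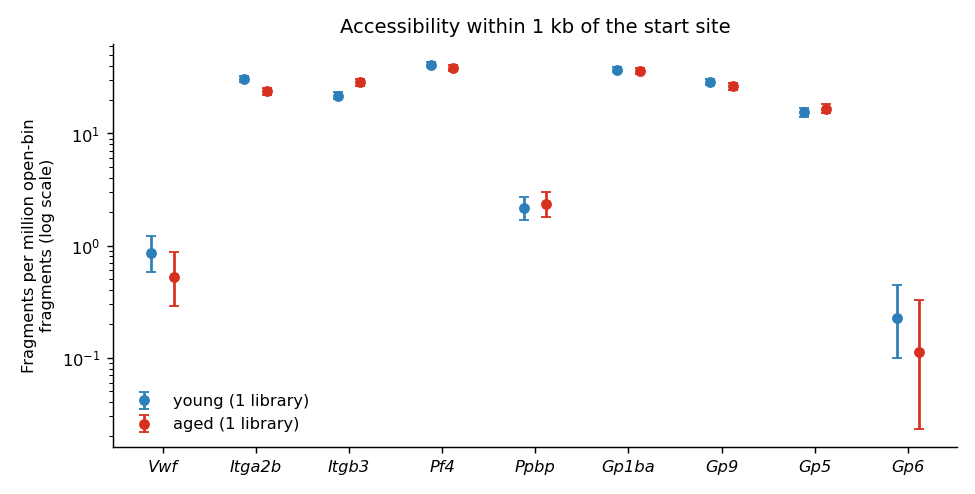
Level of each gene within 1 kb of its start site, in FPM on a log scale, for the young (blue) and aged (red) library, with exact Poisson 95% intervals as bars. Pf4 and Gp1ba are the highest and Gp6 the lowest, and the bars of the 2 ages lie apart for Itga2b (30.4 and 23.7 FPM) and Itgb3 (21.7 and 28.6 FPM). The share of all promoters with bars apart was not computed.

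Between ages, the 2 chains of the fibrinogen receptor stood on opposite sides. Itgb3 was higher in the aged library, by a log2 ratio of 0.40 (0.25 to 0.54), and Itga2b was lower, by -0.36 (-0.50 to -0.21). They were the 2 genes past a log2 ratio of 0.32 in size, the limit used for windows and gene bodies, among the 7 that held 50 fragments or more. Of all 25534 promoters with that many fragments, 13.1% were above this limit and 6.99% below it on the lower side, so 1 and 1 of 7 genes is near that background. Among coding genes alone, these shares were 9.41% and 4.04% of 15978. Itgb3 lay at the 89.6 and Itga2b at the 6.16 percentile of all these ratios. Itga2b was just short of the limit, at -0.317 and -0.314, when libraries were scaled to the fragments in all start-site windows or with a TMM factor, and it was at -0.26 in cells with 3000 to 10000 in-peak fragments. Itgb3 was past the limit in each of the 12 alternatives, from 0.36 to 0.48.

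The remaining 5 genes did not reach the limit. The log2 ratio was -0.09 (-0.21 to 0.03) for Pf4, -0.05 (-0.17 to 0.07) for Gp1ba, -0.12 (-0.26 to 0.02) for Gp9, 0.12 (-0.07 to 0.30) for Gp5 and 0.11 (-0.40 to 0.61) for Ppbp. In cells thinned to equal depth Ppbp was at 0.39, past the limit, and with 500 bp on either side it was at -0.18. Gp5 was at -0.10 with short fragments only. Every one of the 5 intervals above included 0, and only that of Ppbp reached past the limit in both directions. The ratio for Vwf was -0.64 (-1.73 to 0.26), which counts this small cannot tell from 0. The aged level of Gp6 was 0.496 (0.0847 to 2.07) times the young level. Over the 7 genes compared, the median log2 ratio was -0.05, beside -0.04 over all promoters. Summed over the 9 windows, the young cells had 6236 fragments and the aged cells 4590, or 177.5 and 172.7 FPM, a ratio of 0.973 (0.937 to 1.01).

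The differences of Itga2b and Itgb3 were seen on both sides of the start site. The sides are parts of the windows already compared, and a fragment with an end on each side counts in both. They are thus not independent. In the 1 kb upstream, the log2 ratio was -0.37 (-0.55 to -0.20) for Itga2b and 0.51 (0.28 to 0.74) for Itgb3. In the 1 kb downstream it was -0.30 (-0.51 to -0.09) and 0.32 (0.15 to 0.49). The 250 bases before and 50 after the start gave -0.36 and 0.41. Within the receptor for von Willebrand factor, Gp1ba was at -0.05 (-0.18 to 0.08) upstream and 0.16 (-0.05 to 0.37) downstream. Gp9 was at -0.21 (-0.41 to -0.01) and -0.08 (-0.25 to 0.09), and Gp5 at 0.01 (-0.24 to 0.26) and 0.29 (0.05 to 0.53). For each of these 3 genes the intervals of the upstream and downstream sides overlapped.

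**Figure D2:**
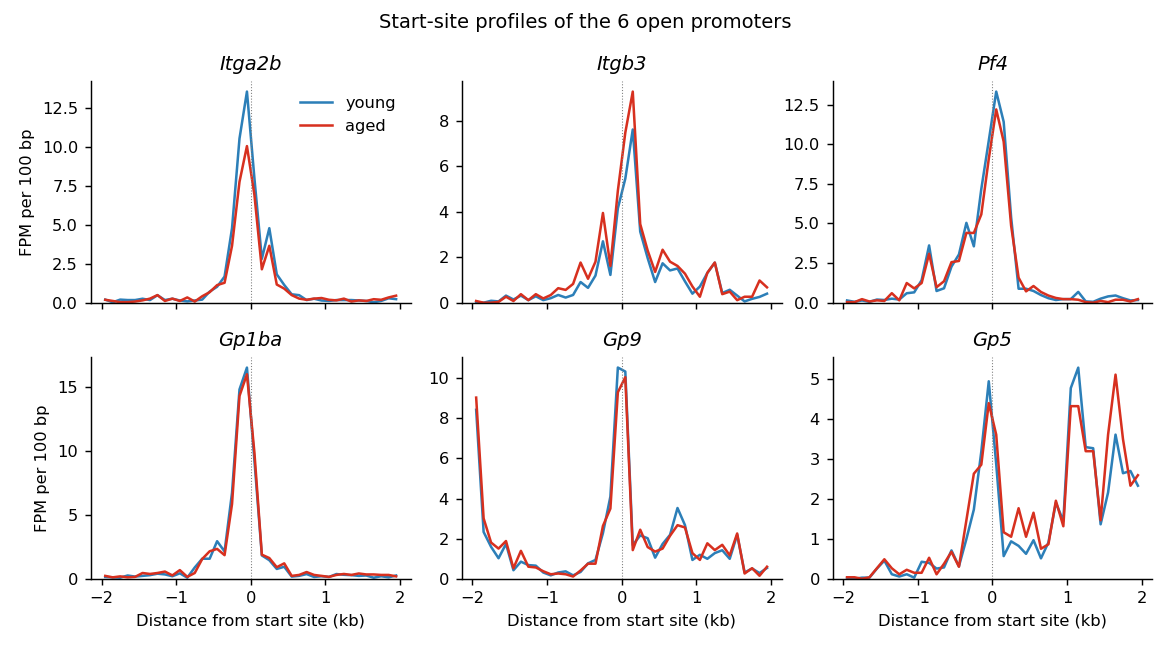
Level in 100-bp steps, in FPM, from 2 kb before to 2 kb after the start site of the 6 open promoters, young in blue and aged in red. The aged curve runs under the young one at the Itga2b peak and over it at Itgb3, while the curves of Gp1ba nearly coincide, at 37.1 and 35.9 FPM over the 1 kb on either side.

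Further annotated transcript starts showed that the value of Itga2b and Vwf depended on the start taken. At Itga2b, the 5' end of the gene belongs to a shorter transcript, and the main coding transcript starts 239 bp inside, where the window gave 1070 and 630 fragments and the same ratio of -0.36. The most open start of Itga2b lay 3167 bp inside the gene, with 2089 and 1649 fragments, 59.4 and 62.1 FPM, a log2 ratio of 0.06. A start 13932 bp inside gave 999 and 770 fragments and 0.03. Within the gene, the lower value in the aged library was therefore seen at the first promoter and not at these 2 sites downstream. It was not confined to that promoter in the locus. An open site in Gpatch8, 17.1 kb before Itga2b, was at -0.42 (-0.74 to -0.12). One in Fam171a2, 31.9 kb from the Itga2b start, was at -0.43 (-0.70 to -0.17), while that at the Fam171a2 start was at 0.13 (-0.02 to 0.27).

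At Vwf the first promoter was nearly closed. The open site nearest to it, 1.7 kb inside the gene, gave 288 and 206 fragments, 8.20 and 7.75 FPM, and a log2 ratio of -0.08 (-0.35 to 0.18). A pair of short transcripts starts about 6 kb inside the gene. The window at the first of them, 6174 bp from the 5' end, gave 386 young and 466 aged fragments, 10.98 and 17.5 FPM, a log2 ratio of 0.67. This window was chosen after its values were seen, and its ratio was 0.40 to 0.73 in 7 alternatives, the lowest in cells thinned to equal depth. A start 56776 bp inside, with the most fragments of all starts of the gene, gave 1092 and 773 fragments, 31.1 and 29.1 FPM, and -0.09. Vwf is also made by endothelial cells. The start sites of 8 endothelial markers summed to 102 FPM in young and 111 FPM in aged cells, with a range of 1.94 to 30.1 and 1.204 to 30.6 FPM. None was at 0, and 1 was higher (Cldn5) and 1 lower (Cdh5) past the limit. Their part in the Vwf values was not tested.

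Over the gene bodies, which all held 50 fragments or more, no gene reached the limit of 0.32. Among all 28339 gene bodies compared, 13.1% were past it on the higher and 5.05% on the lower side. The 140-kb body of Vwf gave 6747 and 5456 fragments, 192 and 205 FPM, with a log2 ratio of 0.10 (0.05 to 0.15). The body of Itgb3 gave 5300 and 4393 fragments, 150.8 and 165.3 FPM, and 0.13 (0.07 to 0.19). The body of Itga2b gave 3765 and 2851 fragments, 107.1 and 107.3 FPM, and 0.0022 (-0.07 to 0.07). Gp5 was at 0.15 (0.02 to 0.28) and Gp1ba at 0.20 (0.0049 to 0.39), whereas Pf4, Ppbp, Gp9 and Gp6 lay between -0.12 and 0.09 with intervals that included 0. Per kilobase of gene, Pf4 was the most open in young cells, at 24.5 FPM per kb, then Gp9 at 14.4 and Gp5 at 10.1 FPM per kb. Vwf was at 1.37 and Gp6 at 0.0691 FPM per kb. The 949-bp body of Pf4 lies wholly within 1 kb of its start site, so its level per kb is that of its promoter. Short and long bodies are therefore not alike in this measure. The median log2 ratio over the 9 bodies was 0.09, beside -0.01 over all bodies. The body of Itga2b also holds the small RNA gene Gm23563, and that of Gp6 2 miRNA genes, whose fragments cannot be set apart.

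A different view came from the bins outside the open bins, where fragments are sparse and spread out. This was looked at after the other values were seen, among coding genes with 200 or more fragment ends there. Over the Vwf body, 257 such bins held 2390 young and 2485 aged ends, a log2 ratio of 0.46 (0.38 to 0.54), at the 93.1 percentile of 14746 gene bodies, whose median was 0.06. The 50 kb after Vwf gave 0.50 (0.32 to 0.68). At Itgb3 the ratio was 0.34 (0.24 to 0.44) over the body, 0.27 (0.13 to 0.42) in the 50 kb before it and 0.61 (0.46 to 0.77) in the 50 kb after it, the last at the 97.0 percentile. Itga2b, on the same chromosome as Itgb3, was at 0.03 (-0.22 to 0.27) over the body and -0.19 (-0.34 to -0.04) upstream. Of the coding genes compared, 14.1% were past the higher limit over the body, 2176 of 19825 in the 50 kb before it and 11.8% in the 50 kb after it. The 50 kb before Vwf gave 0.12 (0.0035 to 0.24), at the 68.7 percentile. Shorter genes had like values in places, with 0.39 (-0.02 to 0.80) over the body of Gp1ba, 0.37 (0.20 to 0.54) in the 50 kb before Ppbp and 0.32 (0.16 to 0.49) in the 50 kb before Pf4, at the 90.0, 90.9 and 89.0 percentile. The stretches before Pf4 and Ppbp overlap. A higher value in the sparse bins was thus not particular to Vwf and Itgb3. The aged library also had a smaller share of short fragments. With those alone, the ratio of the whole Vwf body, open bins included, was 0.02, beside 0.10 with all fragments. The sparse bins were not counted with short fragments alone. The part of fragment length in the sparse bins was not tested.

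**Figure D3:**
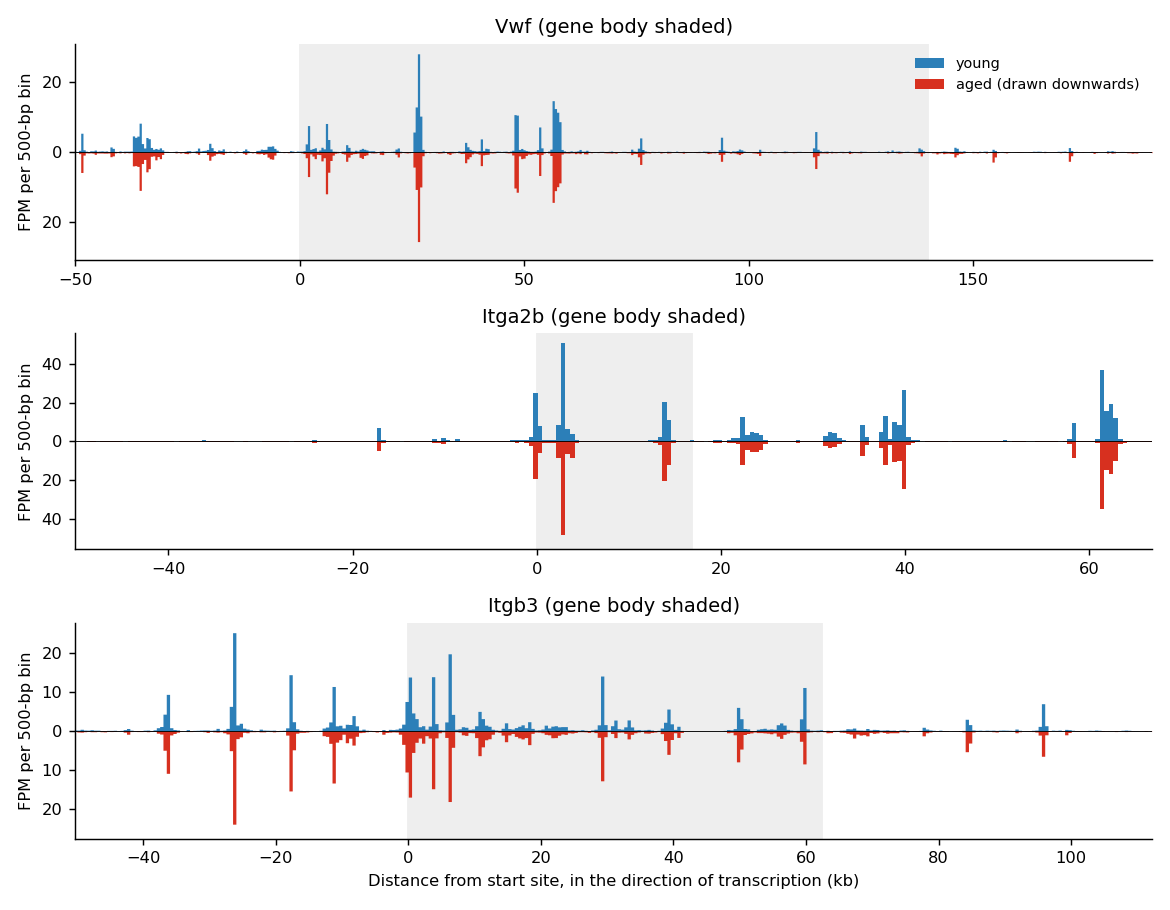
Fragments in 500-bp bins, in FPM, from 50 kb before to 50 kb after Vwf, Itga2b and Itgb3, by distance from the start site in kb, with young upward and aged downward and the gene body shaded. Vwf has its highest bins near 26 kb and 57 kb inside the gene and almost none at 0 kb, and the Itga2b bin near 3 kb is higher than its promoter in both libraries.

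Open bins that adjoin were joined into elements, and 109 elements with 100 fragments or more lay in the loci from 50 kb before to 50 kb after the genes. Of these, 7 were at least 1.5-fold higher and 4 at least 1.5-fold lower in the aged library. The background was 9.38% higher and 3.68% lower of 83126 elements in the genome. The 7 higher (6.42%) and 4 lower of 109 in these loci are near it. All 11 lay over 1 kb from the 5' end of any gene, where 8.33% of 84 elements in the loci were higher, against 10.7% of 65822 in the genome, with 4.31% lower. Counting every annotated transcript start, those inside genes included, 9 of the 11 lay over 1 kb away, 6 higher and 3 lower of 67 elements (8.96% higher), against 11.1% higher and 4.35% lower of 60526 in the genome. The other 2 were the Vwf element at 5.0 kb, 948 bp from an inner start of Vwf, and the Mink1 exon, 988 bp from a start. The calls fell in 3 loci. Vwf had 3 higher (15.0%) and 1 lower of 20, Itgb3 3 higher (13.6%) and 1 lower of 22, and Gp1ba 1 higher (5.0%) and 2 lower of 20. The loci of Itga2b (11 elements), Pf4 (6), Ppbp (3), Gp9 (18), Gp5 (6) and Gp6 (3) had none, and the loci of Pf4 and Ppbp overlap. With the regions kept, 5 of the 11 were past 1.5-fold in each of 7 alternatives, namely both Ano2 elements, the Camta2 element, the Itgb3 element at 2.3 kb and the Gm11639 element. The other 6 dropped below 1.5-fold in at least 1 of them, and the exon of Mink1 came to -0.12 in thinned cells. The minimum of 100 was set on the sum of both libraries, so an element with few fragments could pass it only through the library where it was high, and such a ratio is a description. With a minimum of 200, 2 higher and 3 lower elements of 85 were left, and both Ano2 elements and the Itgb3 element at 2.3 kb were no longer tested.

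The sequence at the densest 200 bases of 4 of these elements, those with the ratio farthest from 1 at each locus and one inside Vwf, is shown together with the strong element of Itga2b that did not differ, all on the plus strand of mm10. They are chr6:125701324-125701523 in an intron of Ano2 past the end of Vwf, chr6:125551657-125551856 in an intron of Vwf, chr11:104609979-104610178 in an intron of Itgb3, chr11:70680020-70680219 in an intron of Camta2 past Gp1ba, and chr11:102467095-102467294 about 3 kb inside Itga2b. Capitals mark the same motif letters as above.
Ano2 intron: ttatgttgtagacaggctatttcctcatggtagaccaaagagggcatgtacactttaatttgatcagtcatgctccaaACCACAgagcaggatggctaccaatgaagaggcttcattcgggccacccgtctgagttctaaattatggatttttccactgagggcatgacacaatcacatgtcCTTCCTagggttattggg
Vwf intron: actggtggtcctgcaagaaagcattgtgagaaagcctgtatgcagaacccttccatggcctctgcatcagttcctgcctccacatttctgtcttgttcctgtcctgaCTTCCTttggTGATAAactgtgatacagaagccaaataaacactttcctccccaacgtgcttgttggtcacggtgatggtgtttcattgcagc
Itgb3 intron: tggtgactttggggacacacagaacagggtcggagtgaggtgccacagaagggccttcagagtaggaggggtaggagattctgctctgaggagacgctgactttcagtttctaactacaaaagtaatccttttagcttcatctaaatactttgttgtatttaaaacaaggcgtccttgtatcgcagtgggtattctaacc
Camta2 intron: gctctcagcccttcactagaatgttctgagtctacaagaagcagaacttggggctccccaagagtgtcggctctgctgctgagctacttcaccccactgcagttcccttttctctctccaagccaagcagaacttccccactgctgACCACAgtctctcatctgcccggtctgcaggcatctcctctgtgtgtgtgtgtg
Itga2b 3 kb: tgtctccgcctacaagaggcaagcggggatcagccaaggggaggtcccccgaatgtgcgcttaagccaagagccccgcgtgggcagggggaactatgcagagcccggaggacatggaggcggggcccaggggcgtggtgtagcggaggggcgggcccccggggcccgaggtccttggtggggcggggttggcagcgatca

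The Ano2 element held a RUNX and an ETS match, the Vwf element an ETS and a GATA match and the Camta2 element a RUNX match, while the Itgb3 and Itga2b elements held none. In 200 bases at the densest point of all 83126 elements, 25.9% held a RUNX, 48.0% an ETS, 22.5% a GATA and 7.41% an NF-E2 match.

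At the Vwf locus, the element with the largest ratio lay 154.5 kb from the Vwf start, in Ano2, which encodes a chloride channel. It gave 27 young and 77 aged fragments, a log2 ratio of 1.88 (1.27 to 2.60), and it passed the minimum only through the aged fragments. At equal depth, 0.229% of young and 0.912% of aged cells had a fragment there, within the range at the start sites of 10 genes of other tissues, 0.0209% to 1.31% in young and 0.0304% to 1.76% in aged cells, so these shares are read as background. Another Ano2 element, 171.5 kb from the Vwf start, gave 44 and 71 fragments and 1.08 (0.53 to 1.67). Inside Vwf, the element 5.0 kb from the start gave 47 and 68 fragments and 0.93 (0.38 to 1.5), and the element beside it at 6.2 kb, which holds the inner transcript starts, gave 347 and 388 fragments and 0.56 (0.35 to 0.78), short of 1.5-fold. The intronic element at 94 kb was lower, with 148 and 71 fragments and -0.65 (-1.09 to -0.24). The most open element of Vwf, at 26.2 kb, gave 1558 and 1048 fragments, 44.3 and 39.4 FPM, and -0.17 (-0.28 to -0.05).

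At the Itgb3 locus, the element 2.3 kb inside the first intron gave 46 young and 84 aged fragments, 1.31 and 3.16 FPM, and a log2 ratio of 1.26 (0.74 to 1.82). The share of cells with a fragment was 0.313% and 0.973%, within the same background range. It lies just past the promoter, whose own element gave 845 and 811 fragments and 0.34 (0.20 to 0.48). The element at 18.3 kb gave 82 and 94 fragments and 0.60 (0.16 to 1.05), and the element at 84.5 kb, in the neighbouring gene Gm11639, 132 and 183 fragments and 0.87 (0.54 to 1.21). The element at 31.3 kb was lower, with 97 and 46 fragments and -0.66 (-1.21 to -0.15). The median log2 ratio of the 22 elements was 0.20, that of the 11 at Itga2b -0.15 and that of all elements 0.00.

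At the Gp1ba locus, which is rich in genes, the lowest ratio belonged to an element 41.1 kb from the start in an intron of Camta2, a transcription factor gene. It gave 413 young and 124 aged fragments, 11.8 and 4.67 FPM, a log2 ratio of -1.32 (-1.63 to -1.04), at the 0.249 percentile of all elements. A fragment there was found in 3.44% (2.94 to 4.0) of young and 1.19% (0.845 to 1.62) of aged cells, the young share above the background range and the aged share within it. An intergenic element 16.6 kb before Gp1ba gave 169 and 207 fragments and 0.69 (0.40 to 1.0), and an exon of Mink1, 41.6 kb before it, 141 and 67 fragments and -0.66 (-1.11 to -0.24). In the 6 loci without a call, the element with the most fragments was the promoter of Pf4 or of Gp5 itself, or lay at a neighbour or between genes. The intergenic element 26.3 kb before Ppbp gave 1343 and 912 fragments, 38.2 and 34.3 FPM, with a log2 ratio of -0.15 (-0.28 to -0.03).

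**Figure D4:**
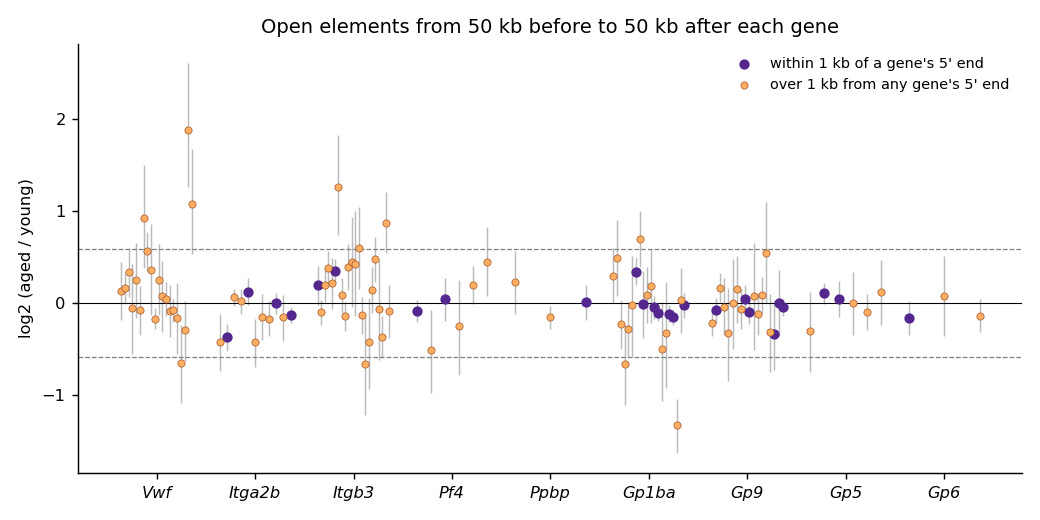
Log2 ratio of aged to young for every element with 100 or more fragments, by locus and in order of distance from the start site, with 95% intervals from the counts as grey bars and dashed lines at 1.5-fold. Purple marks elements within 1 kb of the 5' end of a gene, none of which passes a line; starts inside genes are not counted for the colour, and the values farthest from 0 are 1.88 at the Vwf locus and -1.32 at the Gp1ba locus.

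The share of cells with a fragment at each start site was compared after every cell was thinned to 3000 open-bin fragments, which left 4796 young and 3289 aged cells and dropped 91 and 116 shallower ones. Neither a pooled level nor this share can tell fewer open cells from less signal per cell. At this depth few cells held 2 or more fragments at a start site, as given below, so the share largely restates the pooled level. Pf4 was seen in 10.6% of young and 11.2% of aged cells and Gp1ba in 9.84% and 10.2%. Itga2b was seen in 8.76% (7.97 to 9.59) and 6.66% (5.83 to 7.56), and Itgb3 in 5.96% (5.31 to 6.67) and 8.15% (7.24 to 9.14). The intervals of the 2 ages did not overlap for these 2 genes and overlapped for the other 7. The share of all promoters whose intervals lay apart was not computed, so the 2 genes are not shown to stand out. Gp9 was seen in 7.84% and 7.21%, Gp5 in 4.32% and 4.65% and Ppbp in 0.605% and 0.791% of cells. Vwf, at 0.271% and 0.152%, and Gp6, at 0.104% and 0.0304%, lay within the background range of the genes of other tissues given above, and Ppbp did as well, so these 3 shares are read as background. Without thinning, Itga2b was seen in 19.0% and 15.98% and Itgb3 in 14.0% and 19.6% of cells. At equal depth, 2 or more fragments were found in 0.334% of cells in both libraries at Itgb3, in 0.313% of young and 0.213% of aged cells at Itga2b, in 0.688% and 0.426% at Pf4 and in 0.5004% and 0.213% at Gp9.

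**Figure D5:**
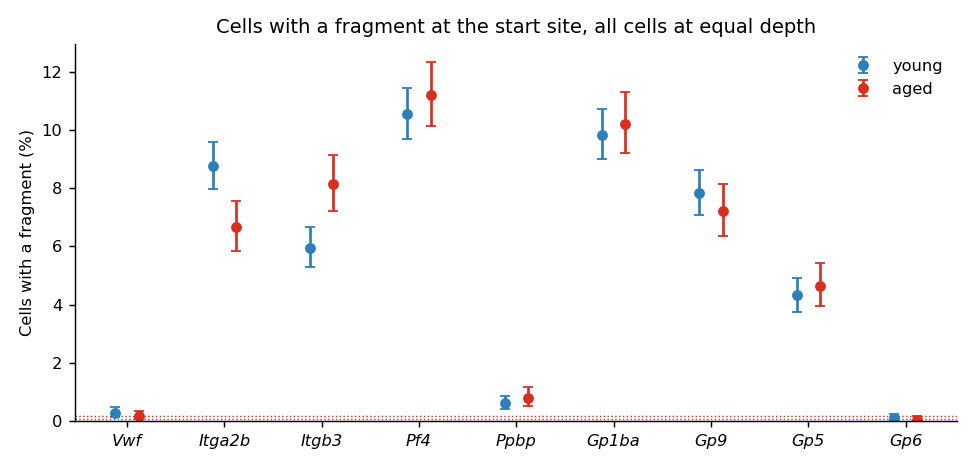
Percent of cells with a fragment within 1 kb of each start site after thinning to equal depth, with exact binomial 95% intervals, young in blue and aged in red. Dotted lines give the median over 10 genes of other tissues, and Itga2b (8.76% and 6.66%) and Itgb3 (5.96% and 8.15%) are the genes whose bars do not overlap. The share of all promoters with bars apart was not computed.

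At this depth most cells showed none of the promoters, 60.8% of young and 60.1% of aged cells, and 31.0% and 31.6% showed 1. The mean number of the 9 promoters with a fragment was 0.482 per young and 0.491 per aged cell. Its variance was 0.451 and 0.454, beside 0.442 and 0.449 if the genes were independent across cells. At least 3 promoters had a fragment in 43 young cells, 0.897% (0.650 to 1.21), and 27 aged cells, 0.821% (0.542 to 1.19). Itga2b and Itgb3, whose products pair in 1 integrin, both had a fragment in 26 young cells, where the product of their shares gives 25.0, and in 17 aged cells, where it gives 17.8. Over the 15 pairs of the 6 open promoters, the count of cells with both was 0.605 to 1.29 times that product in young and 0.589 to 1.33 times in aged cells. The lowest young value was that of Itga2b and Gp1ba, with 25 cells beside 41.3, and Pf4 and Gp1ba gave 60 beside 49.8. With counts this small these ratios carry wide counting error.

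A list of 55 other platelet and megakaryocyte genes gave the wider setting, and 50 of them held enough fragments. Of these, 5 were past the limit of 0.32 on the higher and 5 on the lower side, beside the background of 13.1% and 6.99%, with a median log2 ratio of -0.02. Under scaling to all start-site windows or the TMM factor, the split was 8 higher and 3 lower, where the share of all promoters was 15.0% and 15.1% higher and 6.04% and 5.97% lower. With scaling to all unique fragments it was 5 higher and 7 lower, where 11.9% of all promoters were higher and 7.93% lower. The 18 receptors and adhesion molecules held 3 higher and 3 lower, the 8 granule genes 2 higher and 1 lower, and the 11 signalling genes and enzymes 1 lower. The 6 cytoskeletal genes and the 7 transcription factors held none. The genes past the fold, named after their values were seen, were Selp (P-selectin) at 0.90, Clec1b (the podoplanin receptor) at 0.79, F5 (coagulation factor V) at 0.52, Sparc at 0.47 and Mpig6b at 0.44 on the higher side. On the lower side they were Fcer1g, the signalling partner of the Gp6 product, at -0.87, Cd226 at -0.60, F2rl2 at -0.43, F13a1 (factor XIII) at -0.34 and Plek (pleckstrin) at -0.34. The intervals of Sparc, Cd226 and F13a1 included 0. For Itgb3 and Itga2b, the ratios of 0.40 and -0.36 lay inside the range of this list.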

How the data were processed

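scATAC-seq was measured in 1 young and 1 aged library of sorted HSCs. Per the study's methods and the labels, the authors isolated nuclei and prepared libraries with a 10x Chromium kit, ran Cell Ranger ATAC against mm10 and filtered cells in Signac. The authors deposited, per library, a fragment list (position, barcode and read-pair counts of each unique fragment) and a table of counts per barcode. Fragments were not shifted or scaled again. Cells were the called barcodes with 3000 to 20000 fragments in peaks. Limiting to called barcodes left out 123 young and 131 aged barcodes within these depth limits, and fewer cells were kept than the study states. The study's further filters on the share of reads in peaks, blacklist ratio, nucleosome signal and start-site enrichment were not applied, and no doublet caller was run.

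A fragment was counted once if an end lay in a region. Regions were the GENCODE gene 5' end with 1 kb on either side, the gene body, and elements made of adjoining open 500-bp bins. Ratios are log2 with a pseudocount of 1 fragment. Calls needed a log2 ratio of 0.32 and 50 fragments in sum for windows and bodies, and 1.5-fold and 100 fragments for elements. Intervals were exact Poisson for levels, exact binomial for shares, and conditional binomial, with no pseudocount, for ratios. Fragments carry no replicate error, so no p-value was computed. The scripts (Python 3.11.15, numpy 2.4.6, scipy 1.17.1, pandas 2.3.3) were tested on simulated counts. All 9 genes are named. The text gives the elements with the highest and lowest ratio in the loci of Vwf, Itga2b, Itgb3 and Gp1ba. For the loci of Pf4, Ppbp, Gp9, Gp5 and Gp6 it does not give all of them. The element with the most fragments is not given with its values in every locus. Other elements past the fold and those that hold a start site were named after their values were seen. The genes and lists were chosen with earlier results of these data known. Alternatives changed scaling, fragment length, cells, windows, bins and minimums.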

Additional observations from a re-analysis of the deposited data

How the results depend on the processing

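No paired analysis was possible because each age has 1 library, and for the same reason no replicate could be left out. Over the alternatives, the median log2 ratio of the start-site windows was -0.11 to 0.05 and that of the gene bodies 0.03 to 0.14. The number of windows past the higher limit was 2 in cells thinned to equal depth (Itgb3 and Ppbp), where 11.8% of all promoters were higher. The number lower was 0 with scaling to all start-site windows, 0 with the TMM factor, 0 in cells with 3000 to 10000 in-peak fragments, 0 at the transcript start with the most fragments and 3 with no minimum of fragments, where 16.3% of all promoters were lower. At the start with the most fragments, Itga2b turned to 0.062 and the log2 ratio of the summed windows was 0.018. Gp6, with 8 and 3 fragments, turned to 0.50 with short fragments only and 0.58 with 2 kb on either side. Pf4 was at 0.05 in thinned cells. Of the 9 gene bodies, 1 was past the fold, higher, with all barcodes within the depth limits (Gp6, at 0.32, where 15.5% of all bodies were), and of the 7 tested without the first 1 kb, 1 was higher (Gp1ba, at 0.36, where 15.3% were).

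Elements past the fold were 3 of 92 higher with short fragments only (7.38% in the genome), 4 of 88 in cells with 3000 to 10000 in-peak fragments (7.26%), 2 of 76 in thinned cells (6.19%), 3 of 80 with open bins at 10 times the genome mean (5.86%), 2 of 85 with 200 fragments per element (6.05%) and 20 of 109 with the limit of 0.32 on the log2 scale, where the background was 19.6% higher and 11.4% lower. They were 2 lower in thinned cells (2.65%), 2 with bins at 10 times the mean (1.69%) and 14 with the limit of 0.32. Under the alternatives that kept the regions, the ratio was 1.85 to 2.19 for the Ano2 element, -1.55 to -1.24 for the Camta2 element, 1.2 to 1.59 for the Itgb3 element at 2.3 kb and 0.44 to 1.04 for the Vwf element at 5.0 kb. Other platelet genes past the fold were 8 higher and 3 lower with scaling to start-site windows, 8 and 3 with the TMM factor, 5 and 7 with scaling to all unique fragments, where 11.9% of all promoters were higher and 7.93% lower, and 3 and 7 with short fragments only, where 10.3% were higher and 6.97% lower. The mean number of promoters per cell was higher in aged cells by 0.00824, by 0.0545 without thinning and by 0.0716 over gene bodies, and turned to -0.0039 when cells were thinned to 2000 fragments. The causes were not tested. Scaling moved the median over all promoters between -0.07 and -0.0004. Fewer than 50 fragments limit what can be said of Vwf and Gp6.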
